A study of Mus musculus with 38 samples.

Results

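A set of 36 genes of glycolysis and of the cellular response to low oxygen was followed through 38 RNA libraries of mouse pluripotent cells. Its members were picked by name out of the 29267 genes measured: 24 genes of glucose uptake, the glycolytic steps, lactate transport and the control of pyruvate use, and 12 genes of the hypoxia response. Glycolysis splits glucose into pyruvate, which is either reduced to lactate and exported or carried into the mitochondria and oxidised. Many enzymes of the pathway exist as isoforms encoded by separate genes, and cells can exchange one isoform for another. Hypoxia-inducible factors (HIFs) are transcription factors whose alpha subunits are marked for destruction by oxygen-dependent prolyl hydroxylases; when oxygen is scarce they accumulate and raise transcription of glycolytic genes, of angiogenic and autophagy genes and of the hydroxylases themselves. Primed pluripotent cells are known for a strongly glycolytic metabolism, whereas naive cells use both glycolysis and mitochondrial respiration.

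The study asked whether c-Jun, a transcription factor of the AP-1 family, holds cells in the primed state. Embryonic stem cells (ESCs, n = 5) represented the naive state of the early embryo and, per the study's methods, were kept in N2B27 with LIF and inhibitors of GSK3 and MEK; 2 of the libraries are labelled with the strain CBA/CaJ X C57BL/6J and 3 with none. Epiblast stem cells (EpiSCs, n = 4), the primed state, were kept with Activin A and bFGF. EpiSCs with a stable Klf4 transgene (kEpiSCs, n = 2) were moved into iCD1 medium and sampled on days 1, 2 and 3 of the primed to naive transition (PNT, n = 2 on each day). A parallel series received the c-Jun N-terminal kinase inhibitor SP600125 (JNKi, n = 2, 3 and 2 on days 1, 2 and 3), and reverted induced pluripotent cells (kiPSCs, n = 2) were taken as the end point. The remaining 12 libraries came from c-Jun-/- (JunKO) and wild type (WT) ESCs turned into EpiSC-like cells. Each genotype had 1 library without (iEpiSC) and 1 with (kiEpiSC) the Klf4 prefix in the label while primed, and, after 3 days of transition, 2 kiEpiSC libraries in plain iCD1 and 2 with JNKi added. All kEpiSC, PNT and kiPSC libraries carried the Klf4 transgene; the study describes a CAG promoter and selection of stable lines, and the labels do not name more than 1 line for these groups. In the methods, SP600125 was given at several doses, and the labels do not say which one the sequenced cells received.

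Levels are given as TPM, a transcript abundance corrected for gene length and scaled to the same total in each library, and differences as log2 fold changes of TMM-scaled counts from edgeR's quasi-likelihood test, each with its standard error (SE). "Called" means an adjusted p under 0.05 over all genes tested. Where groups are said not to overlap, this describes members named for their call or size of change and adds no support. Between so few libraries a lack of overlap often arises by chance, and its share over all genes was not computed. Of the members, 35 passed the filter on low counts in every fit. Car9, a carbonic anhydrase induced by HIF, passed in none and was listed between 0 and 4.46 TPM. The labels do not say that replicates were separate cultures, so a p-value covers the variation among the sequenced libraries alone, and in bulk RNA fewer cells of a type and less RNA per cell cannot be told apart. Pfkp, Gapdh and Eno1 had fractional counts in all 38 libraries, as did Slc2a3, Gpi1 and Hif1a in most, as RSEM gives where it divides reads among similar sequences, and their levels are uncertain to that extent.

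The labels were checked against genes outside the set. Klf4 stood at 65.2 and 103 TPM in kEpiSCs, against 0.52 to 1.94 TPM in EpiSCs. It was also at 36.3 and 36.6 TPM in the JunKO and WT iEpiSC libraries, whose labels carry no Klf4 prefix. Jun stood at 5.01 to 14.6 TPM in the 6 JunKO libraries and at 40.4 to 240.4 TPM in the 6 WT ones. Eif2s3y, a gene of the Y chromosome, stood at 45.4 to 90.2 TPM in these JunKO libraries and at 6.34 to 28.8 TPM in the WT ones, so the lines differed in more than Jun. Xist, the RNA of the inactive X chromosome, was at 0.57 and 0.10 TPM in kEpiSCs, at 0.80 TPM in EpiSC replicate 1 and at 328 to 417 TPM in EpiSC replicates 2 to 4, while Eif2s3y was at 66.1 and 67.6, 39.4, and 0.79 to 2.00 TPM in the same libraries. The EpiSC libraries thus mix lines of different sex, and EpiSC replicates 2 to 4 differ in it from the kEpiSCs. Eif2s3y was listed at 0.0 TPM in ESC replicate 1 and at 49.96 to 87.97 TPM in ESC replicates 2 to 5, so the ESC libraries differ in this RNA as well. The 14 naive markers summed to 8097 to 11230 TPM in ESCs and 7865 to 9410 TPM in kiPSCs, but to only 224 to 298 TPM on PNT days 1 to 3, with Pou5f1 down to 43.4 and 35.5 TPM on day 3. Klf4, the transgene of the PNT cells, is among these markers and alone stood at 134.3 to 165.1 TPM on PNT days 1 to 3. Library totals ran from 2164711 to 15944950 counts. ESC replicates 1 to 4 had a smaller difference between gene length and effective length in their tables than the other 34 libraries.

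The 17 enzyme genes from hexokinase to lactate dehydrogenase, without the kinase Pfkfb3, summed to 33793 and 35457 TPM in kEpiSCs. The sum was 17919 and 18049 TPM on PNT day 1, 19646 and 19756 TPM on day 2, 15901 and 16737 TPM on day 3, and 15965 and 17598 TPM in kiPSCs. In ESCs the sum had a median of 19012 TPM (15455 to 36318), against 30909 TPM (28800 to 37112) in EpiSCs. The 11 hypoxia genes other than Hif1a were much lower, at 1887 and 2329 TPM together in kEpiSCs and 270 to 330 TPM on PNT days 1 to 3. The largest part of the enzyme sum was Gapdh, which alone held 7128 to 16118 TPM across the ESC libraries. The heatmap of all members over all libraries shows the kEpiSC columns above the gene's own median for most members.

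**Figure D1:**
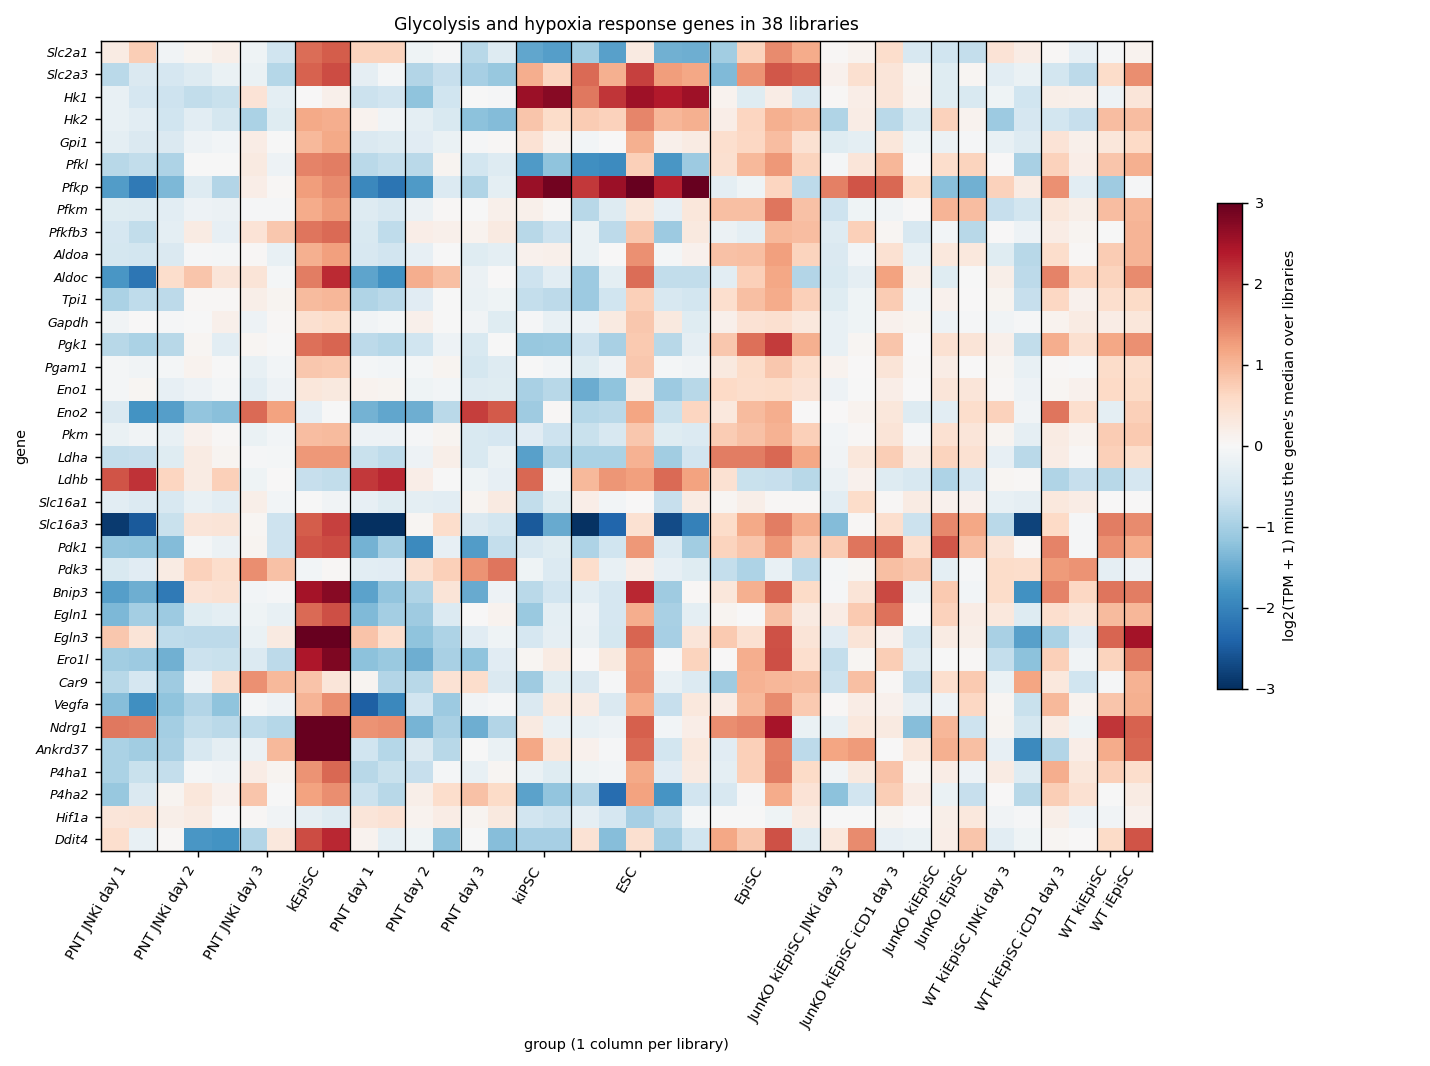
Level of the 36 members (rows) in the 38 libraries (columns, by group), as log2(TPM + 1) minus the gene's own median over all libraries; red is above and blue below that median, with colours limited to 3 on either side. The 2 kEpiSC columns are red for most rows and the PNT day 1 columns next to them blue, while Ldhb shows the opposite, at 130 and 125 TPM in kEpiSCs and 909 and 1009 TPM on day 1.

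HIFs bind DNA at a short core, written ACGTG or GCGTG, here searched on both strands (CACGT and CACGC on the other). Windows of 250 bases before to 50 bases after the annotated start were taken from RefSeq on GRCm38.p6. Of the 36 members, 34 had a window, and 31 of these (91.2%) held at least 1 match, against 46.7% of all 27025 genes with a window. By window, 39 of 48 member windows (81.2%) held a match, against 43.8% of all 32851 windows. At least 3 separate matches were found in 14 member windows (29.2%), against 6.5% of all windows. Gpi1, Tpi1 and Eno2 had none. The palindrome CACGTG, which holds the core on both strands and is also the E-box bound by MYC, was in 6 member windows and in 7.2% of all windows. Such a match is a string of letters, not a measured binding site. Both cores hold the bases CG, and the members were not matched to the other genes for base composition, expression or number of windows per gene. The shares therefore do not show an enrichment of HIF sites. Shown here are 3 members with very large falls on PNT day 1 and the lactate dehydrogenase pair, which moved in opposite directions; matches are in capitals, and matches that overlap form 1 run. The windows are chr11:120948817-120949116 (+ strand) for Slc16a3, chr8:45999801-46000100 (- strand) for Ankrd37, chr7:138909457-138909756 (- strand) for Bnip3, chr7:46845554-46845853 (+ strand) for Ldha and chr6:142507908-142508207 (- strand) for Ldhb.
Slc16a3: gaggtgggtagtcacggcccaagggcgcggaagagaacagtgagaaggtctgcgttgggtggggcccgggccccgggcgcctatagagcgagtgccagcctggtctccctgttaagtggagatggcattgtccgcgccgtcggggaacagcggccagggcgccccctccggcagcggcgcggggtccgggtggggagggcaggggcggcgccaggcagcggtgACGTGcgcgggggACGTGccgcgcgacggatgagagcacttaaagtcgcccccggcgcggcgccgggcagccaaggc
Ankrd37: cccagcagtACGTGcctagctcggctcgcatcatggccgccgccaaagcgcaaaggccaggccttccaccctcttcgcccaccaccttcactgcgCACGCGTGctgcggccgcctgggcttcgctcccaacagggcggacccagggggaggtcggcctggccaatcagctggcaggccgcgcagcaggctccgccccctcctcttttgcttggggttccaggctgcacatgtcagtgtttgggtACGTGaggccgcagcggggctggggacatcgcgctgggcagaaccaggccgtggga
Bnip3: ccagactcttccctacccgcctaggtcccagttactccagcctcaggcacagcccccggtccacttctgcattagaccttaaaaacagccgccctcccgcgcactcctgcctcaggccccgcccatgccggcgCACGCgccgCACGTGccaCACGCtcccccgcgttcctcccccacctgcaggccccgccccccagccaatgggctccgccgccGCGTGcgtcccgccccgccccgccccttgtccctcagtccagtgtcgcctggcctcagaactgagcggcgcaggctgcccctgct
Ldha: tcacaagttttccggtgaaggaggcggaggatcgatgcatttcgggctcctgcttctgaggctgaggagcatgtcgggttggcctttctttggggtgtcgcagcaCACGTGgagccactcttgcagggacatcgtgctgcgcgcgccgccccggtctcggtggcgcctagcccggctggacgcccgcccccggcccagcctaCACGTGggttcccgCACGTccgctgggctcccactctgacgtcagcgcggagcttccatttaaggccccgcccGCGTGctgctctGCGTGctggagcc
Ldhb: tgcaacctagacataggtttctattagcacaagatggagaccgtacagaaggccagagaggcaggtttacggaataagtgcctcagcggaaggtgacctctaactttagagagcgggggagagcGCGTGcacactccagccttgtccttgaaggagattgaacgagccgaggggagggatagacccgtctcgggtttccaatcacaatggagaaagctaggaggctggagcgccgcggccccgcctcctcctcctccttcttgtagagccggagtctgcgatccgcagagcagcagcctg
The Ldha window shown held 5 runs, 2 of them CACGTG, and a second annotated Ldha start, whose window is not shown, held 2 and no CACGTG. The Ldhb window held 1. Slc16a3 had 2, Ankrd37 had 3 and Bnip3 had 4.

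Before the comparison of the naive and primed states, a difference between replicates has to be given. ESC replicate 3 had the highest level of the 5 ESC libraries in 28 of the 34 members at 10 TPM or more, while it was the highest for 18.4% of all 9108 such genes. Bnip3, a mitophagy receptor, stood at 50.5, 44.6, 308.9, 30.0 and 64.5 TPM in ESC replicates 1 to 5. Slc16a3, the lactate exporter MCT4, stood at 23.6, 36.1, 264.2, 29.1 and 46.2 TPM. Of the other hypoxia genes, 11 of 19 at 10 TPM or more were highest in that library. The fibroblast collagens Col1a1 and Col3a1 were not, with Col1a1 at 1.06 TPM and Col3a1 at 0.81 TPM in ESC replicate 3, and it was ESC replicate 5 that had 143.0 and 139.1 TPM. Of the EpiSC libraries, replicate 3 was the highest for 31 of 35 members, against 29.0% of 8806 genes. What set these libraries apart is not in the labels. For ESCs, results are therefore given with and without replicate 3. That library was picked on these same members, and leaving it out lowers the ESC level of most of them.

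In ESCs compared with EpiSCs, members of the same step differed by isoform. Of 35 members tested, 4 were called higher (11.4%) and 12 lower (34.3%) in ESCs, while 27.1% of all 13923 genes were called higher and 23.8% lower. The median log2 fold change was -0.53 over the members and 0.025 over all genes. The members called higher were the phosphofructokinase Pfkp, the hexokinase Hk1, the lactate dehydrogenase Ldhb and the pyruvate dehydrogenase kinase Pdk3, each an alternative isoform of a step whose other isoform was lower or not called.

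Phosphofructokinase commits glucose carbon to glycolysis and has a platelet (Pfkp), a liver (Pfkl) and a muscle (Pfkm) isoform. Pfkp stood at 132, 179, 457, 151 and 266 TPM in ESC replicates 1 to 5, against 23.6, 26.6, 46.1 and 16.7 TPM in EpiSC replicates 1 to 4. All ESC libraries lay above all EpiSC libraries (log2 fold change 2.88 ± 0.40 SE, adjusted p = 6.4e-05). Pfkl ran the other way, at 42.3, 40.8, 252, 44.95 and 72.0 TPM in ESCs and 215, 303, 382 and 244 TPM in EpiSCs, and only ESC replicate 3 reached the EpiSC range (-1.69 ± 0.48, adjusted p = 0.010). Pfkm was also lower, at 24.5, 33.4, 56.4, 37.1 and 56.7 TPM in ESCs and 84.0, 83.8, 135.7 and 82.6 TPM in EpiSCs, with no overlap (-1.23 ± 0.24, adjusted p = 8.1e-04). As a share of the 3 isoforms, Pfkp held 59.7% to 70.7% of TPM in ESCs and 4.86% to 8.18% in EpiSCs. ESC replicate 3 was no exception in the shares, which lie apart in every library.

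Hexokinase traps glucose in the cell. Hk1, the isoform found in most tissues, stood at 59.2, 88.2, 117, 105 and 117 TPM in ESCs and at 20.9, 14.7, 22.7 and 13.6 TPM in EpiSCs, with every ESC library above every EpiSC library (2.35 ± 0.25, adjusted p = 8.6e-06). Hk2, the isoform induced by HIF, was at 146, 139, 241, 173 and 182 TPM in ESCs and 98.1, 135, 180 and 171 TPM in EpiSCs. The Hk2 ranges overlapped and the difference was not called (0.29 ± 0.22, adjusted p = 0.30). Hk2 held 60.9% to 71.2% of the pair in ESCs and 82.5% to 92.6% in EpiSCs.

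Lactate dehydrogenase A favours the making of lactate and the B form its use. Ldha stood at 712, 708, 2831, 660 and 926 TPM in ESCs, against 3947, 3975, 4495 and 3078 TPM in EpiSCs, so that even ESC replicate 3 lay below all EpiSC libraries (-1.70 ± 0.40, adjusted p = 0.0033). Ldhb stood at 410, 524, 496, 682 and 489 TPM in ESCs, against 286, 132, 129 and 117 TPM in EpiSCs, again with no overlap (1.62 ± 0.37, adjusted p = 0.0026). EpiSC replicate 1 was the highest EpiSC library for Ldhb. Ldhb held 14.9% to 50.8% of the pair in ESCs, lowest in replicate 3, and 2.79% to 6.76% in EpiSCs.

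Lactate leaves the cell through monocarboxylate transporters. Slc16a3 was lower in ESCs, at the values above, than in EpiSCs with 278, 424, 552 and 409 TPM (-2.36 ± 0.64, adjusted p = 0.0075). Slc16a1, which carries lactate both ways, did not separate the states, at 47.8 to 93.7 TPM in ESCs and 80.0 to 88.0 TPM in EpiSCs (-0.15 ± 0.16, adjusted p = 0.45). Pyruvate dehydrogenase kinases shut off entry of pyruvate into the citrate cycle. Pdk1 stood at 17.9, 22.9, 88.1, 26.3 and 16.6 TPM in ESCs, against 56.7, 63.2, 87.3 and 59.8 TPM in EpiSCs, and the groups overlapped through ESC replicate 3 alone (-1.26 ± 0.44, adjusted p = 0.029). Pdk3 stood at 59.7, 34.8, 47.4, 34.5 and 31.4 TPM in ESCs and 24.7, 21.1, 34.7 and 23.4 TPM in EpiSCs, a smaller difference with slight overlap (0.67 ± 0.21, adjusted p = 0.017). The call of Pdk1 was lost without any 1 of ESC replicates 1, 2, 4 and 5 or without EpiSC replicate 3, and that of Pdk3 without EpiSC replicate 2 or 4.

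The remaining calls were lower in ESCs. They were the glucose transporter Slc2a1 (-1.64 ± 0.44), the phosphoglycerate kinase Pgk1 (-1.69 ± 0.34), the enolase Eno1 (-1.26 ± 0.29), the triose phosphate isomerase Tpi1 (-1.05 ± 0.29), the pyruvate kinase Pkm (-0.97 ± 0.27), the mTORC1 inhibitor Ddit4 (-1.29 ± 0.43) and Hif1a (-0.56 ± 0.17). The call of Ddit4 was lost without EpiSC replicate 1 or 3. Slc2a1 stood at 193, 129, 485, 146 and 145 TPM in ESCs and 194, 634, 1082 and 870 TPM in EpiSCs. Its partner transporter Slc2a3 stood at 894, 575, 1151, 660 and 619 TPM in ESCs and 110, 705, 998 and 943 TPM in EpiSCs and was not called (0.18 ± 0.42, adjusted p = 0.75). EpiSC replicate 1, the library without Xist, was the low EpiSC library for both transporters and the high one for Ldhb. Slc2a3 thus held 70.4% to 82.2% of the pair in ESCs and 36.2% to 52.7% in EpiSCs.

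Without ESC replicate 3, 31 of the 35 tested members were called, 4 higher and 27 lower in ESCs, while the share of all genes called was 51.6%, against 50.9% with it. The 4 members still not called were Slc2a3, Hk2, Slc16a1 and Ankrd37. Slc16a3 then differed by -3.68 ± 0.28 (adjusted p = 9.3e-07), Ldha by -2.37 ± 0.18 and Bnip3 by -1.54 ± 0.29. With all 5 ESC libraries, Bnip3 (-0.40 ± 0.59), Ndrg1 (-0.97 ± 0.54), Ero1l (-0.52 ± 0.35), Vegfa, P4ha1, P4ha2, Egln1 and Egln3 were not called. In this fit, whether these hypoxia members were called between the states thus rested on whether that library was included. Aldoa, Aldoc, Gpi1, Gapdh, Pgam1, Eno2 and Pfkfb3 were likewise called lower without it and not in the same fit with it. Of the other settings that kept it, DESeq2, the other filters and a fit of the compared groups alone called 12 members lower, as the main fit did. The number lower was 14 with limma, 16 in a fit of all 38 libraries and 19 with a replicate block. With ESC replicate 3 kept and EpiSC replicate 3 left out, 14 members were called, 4 higher and 10 lower in ESCs, and 45.5% of all genes.

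The calls also rested on which other libraries stood for each state. With EpiSC replicate 1 as the only EpiSC library, a setting added after the data were seen in which the lone library is assumed to vary like the others, 4 members were called: Pfkp (2.96 ± 0.74), Slc2a3 (2.67 ± 0.45) and Hk1 (2.00 ± 0.42) higher and Pfkm (-1.16 ± 0.36) lower in ESCs. The difference of Slc2a1 was then 0.06 (adjusted p = 0.95). Pgk1 and Pdk3 lie on the X chromosome, and their differences were -1.15 (adjusted p = 0.13) and 0.62 (adjusted p = 0.25) against that library. Among the ESCs, replicate 1, with Eif2s3y at 0.0 TPM, was the highest library for Pdk3 but not for Pgk1. With only the ESC libraries that carry no strain label, the calls of Slc2a1, Pfkl, Tpi1, Pkm, Pdk1 and Pdk3 were lost. With ESC replicate 5 alone, the ESC library whose length gap is like that of the EpiSCs, those of Ldhb, Pdk3, Hif1a and Ddit4 were lost, and Hif1a differed by -0.14 (adjusted p = 0.57).

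**Figure D2:**
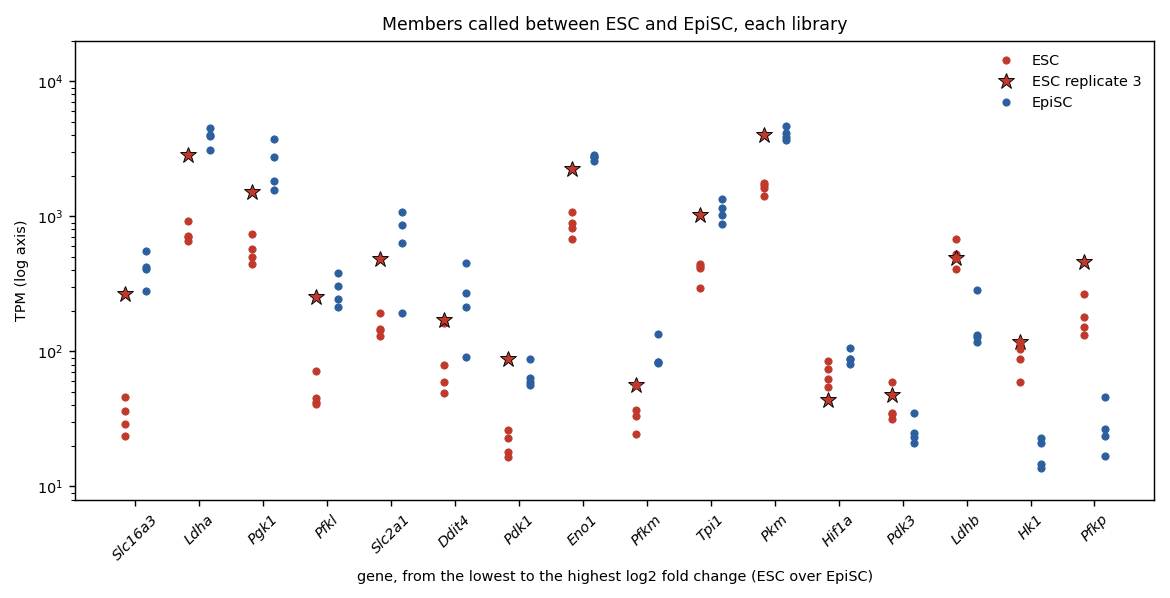
TPM (log axis) of the 16 members called between ESCs (left of each pair) and EpiSCs (right); points are libraries, and the star is ESC replicate 3. Pfkp and Hk1 separate with higher ESC levels, Pfkm and Ldha with lower ones, and the star lies inside or near the EpiSC range for Pfkl, Pdk1 and Slc16a3.

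The kEpiSCs were compared with EpiSCs, both kept in primed medium. The Klf4 transgene, the line and, for 3 of the 4 EpiSC libraries, the sex of the cells cannot be told apart in this comparison. Only Ankrd37, an ankyrin repeat protein known as a HIF target, was called higher and no member lower, against 0.941% of all genes higher and 0.323% lower. Ankrd37 stood at 115 and 163 TPM in kEpiSCs, against 8.08, 17.9, 31.8 and 5.71 TPM in EpiSCs, far apart (3.65 ± 0.61, adjusted p = 0.0096). Its EpiSC levels rest on only 8, 9, 25 and 5 counts, against 705 and 1013 in the larger kEpiSC libraries, and are imprecise. The call was lost without kEpiSC replicate 2 (adjusted p = 0.14) and against EpiSC replicate 1 alone (3.93 ± 1.07, adjusted p = 0.095), where Slc2a3 (3.19 ± 0.49) and Ero1l (2.63 ± 0.58) were called higher. Of the 35 members, 29 had a fold change above 0, with a median of 0.66, against -0.007 over all genes. Among those not called were Egln3, a HIF prolyl hydroxylase, at 160 and 190 TPM in kEpiSCs against 28.9, 22.9, 64.5 and 21.6 TPM in EpiSCs (2.42 ± 0.60, adjusted p = 0.070), and the oxidoreductase Ero1l, at 228 and 293 TPM against 41.7, 88.6, 160 and 58.6 TPM (1.66 ± 0.43, adjusted p = 0.079). For both genes the groups did not overlap. The same 2 kEpiSC libraries are the baseline of the time course, and replicate 2 was the higher of them for 28 of 34 members, against 49.6% of all genes.

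On the first day in iCD1, nearly the whole set fell. Compared with kEpiSCs, 33 of 35 members were called lower and 2 higher on PNT day 1, against 23.1% of all 14892 genes lower and 23.2% higher. The members' median log2 fold change was -2.15, and that of all genes 0. The 2 that rose were Ldhb and Hif1a. Leaving out any of the 4 libraries left 33 of the 35 called.

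The lactate exporter fell furthest. Slc16a3 stood at 17.3 and 23.1 TPM on day 1, against 670 and 793 TPM in kEpiSCs (-5.23 ± 0.40, adjusted p = 7.0e-08). Slc16a1 changed little, at 66.3 and 60.3 TPM against 77.9 and 72.2 TPM (-0.37 ± 0.13, adjusted p = 0.025), a call that each single omitted library removed. Slc16a3 held 20.7% and 27.7% of the transporter pair on day 1, against 89.6% and 91.7% in kEpiSCs. The lactate dehydrogenases turned over at the same time. Ldha stood at 860 and 807 TPM on day 1, against 3357 and 3391 TPM in kEpiSCs (-2.14 ± 0.20, adjusted p = 5.6e-07). Ldhb stood at 909 and 1009 TPM, against 130 and 125 TPM (2.79 ± 0.37, adjusted p = 2.1e-05), and held 51.4% and 55.6% of the pair, against 3.55% and 3.74%. In no other PNT group did Ldhb reach this level except the day 1 cells with JNKi, at 777 and 947 TPM.

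The hypoxia members fell with it. Ankrd37 stood at 6.60 and 5.37 TPM on day 1, against 115 and 163 TPM in kEpiSCs (-4.66 ± 0.35, adjusted p = 7.0e-08). Bnip3 stood at 20.2 and 27.2 TPM, against 360 and 426 TPM (-4.35 ± 0.60, adjusted p = 2.9e-05). Ero1l, which oxidises client proteins in the endoplasmic reticulum, stood at 16.98 and 18.5 TPM, against 228 and 293 TPM (-4.003 ± 0.29, adjusted p = 4.2e-08). None of these pairs came near each other. Vegfa, the vascular growth factor, differed by -3.34 ± 0.23. The hydroxylases Egln1 and Egln3 differed by -3.22 ± 0.30 and -2.82 ± 0.18, and the collagen prolyl hydroxylases P4ha1 and P4ha2 by -2.48 ± 0.23 and -2.24 ± 0.23. Ndrg1, a stress-responsive gene, and Ddit4 also fell (-1.92 ± 0.24 and -2.33 ± 0.55). Hif1a itself went up at the RNA level, to 115 and 120 TPM on day 1, against 73.6 and 68.1 TPM in kEpiSCs (0.55 ± 0.10, adjusted p = 4.2e-04); HIF activity is set mainly through protein stability, which was not measured.

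Among the enzymes, Aldoc and Pfkp fell furthest. Aldoc, the brain aldolase, stood at 14.6 and 12.1 TPM on day 1, against 133 and 219 TPM in kEpiSCs (-4.19 ± 0.27, adjusted p = 1.1e-08), whereas Aldoa, the main form, stood at 1090 and 1030 TPM, against 3182 and 3582 TPM (-1.80 ± 0.13). Pfkp stood at 6.90 and 5.68 TPM, against 71.6 and 80.5 TPM (-3.68 ± 0.38), and Pfkl at 86.8 and 92.9 TPM, against 436 and 448 TPM (-2.54 ± 0.28). Pfkm stood at 33.8 and 31.3 TPM, against 96.3 and 109 TPM (-1.78 ± 0.12). Hk2 fell by 1.36 ± 0.15 and Hk1 by 0.88 ± 0.21 on the log2 scale. Of the single-isoform steps, Pgk1 (-2.64 ± 0.21), Tpi1 (-1.97 ± 0.21) and Gpi1 (-1.56 ± 0.14) had the larger falls. The falls were smaller for Pkm (-1.21 ± 0.12), Pgam1 (-0.98 ± 0.09), Gapdh (-0.72 ± 0.12) and Eno1 (-0.38 ± 0.10). Eno2, the neuronal enolase, was at 2.40 and 2.06 TPM, against 6.66 and 8.02 TPM (-2.42 ± 0.43). Slc2a3 stood at 228 and 264 TPM, against 946 and 1072 TPM (-2.15 ± 0.20), and Slc2a1 at 636 and 635 TPM, against 1292 and 1425 TPM (-1.21 ± 0.18).

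Pdk1 stood at 12.6 and 16.7 TPM on day 1, against 133 and 139 TPM in kEpiSCs (-3.07 ± 0.42, adjusted p = 3.0e-05). Pdk3 stood at 32.5 and 32.2 TPM, against 38.6 and 42.0 TPM (-0.44 ± 0.17, adjusted p = 0.049), a call that was lost without any 1 of the 4 libraries. Pdk3 thus made up 65.8% and 72.1% of the pair on day 1, against 22.5% and 23.2% in kEpiSCs. Pfkfb3, which makes the allosteric activator of phosphofructokinase, fell by 2.54 ± 0.19. Markers of other cell types moved on the same day. Of 11 fibroblast markers tested, 6 were called higher and 1 lower, with a sum of 92.9 and 99.9 TPM on day 1 against 20.5 and 24.8 TPM in kEpiSCs and none of the 12 listed at 0. The trophoblast markers summed to 700.7 and 786.0 TPM, against 322 and 331 TPM, with 6 of 10 called higher and 4 lower. Their part in the fall of the members was not tested.

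Genes outside the set moved in like manner. Of 26 further hypoxia response genes tested, 19 were called lower and 2 higher on day 1, with a median log2 fold change of -1.49. The largest falls were those of Stc2 (-3.83 ± 0.33), a secreted glycoprotein, Loxl2 (-3.33 ± 0.50), a lysyl oxidase, Plod2 (-2.71 ± 0.22), a collagen lysyl hydroxylase, and Gys1 (-2.62 ± 0.16), the glycogen synthase of muscle and other tissues. Of 14 components of the HIF pathway, 4 were called higher and 3 lower, not far from the 23.2% and 23.1% of all genes. Cited2, which competes with HIF for its coactivator, rose by 2.17 ± 0.43, and Epas1, which encodes HIF-2 alpha, by 0.94 ± 0.29. Hif3a (-3.32 ± 0.37) and Arnt (-1 ± 0.13), the common beta subunit, were lower. Myc, another activator of glycolytic genes, was lower as well (-2.20 ± 0.43). By contrast the 18 citrate cycle genes had 4 called in each direction and a median of -0.03.

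On day 2, compared with day 1, part of the set came back. The call count was 10 higher and 4 lower of 35, against 7.10% and 9.38% of all genes, and the members' median was 0.41. Slc16a3 stood at 199 and 274 TPM on day 2, against 17.3 and 23.1 TPM on day 1 (3.60 ± 0.38, adjusted p = 9.0e-06). Aldoc stood at 97.1 and 85.0 TPM, against 14.6 and 12.1 TPM (2.95 ± 0.27, adjusted p = 1.9e-06). Neither had an overlap between days. Vegfa (1.49 ± 0.23), P4ha2 (1.25 ± 0.23), Pdk3 (0.98 ± 0.18), Pfkfb3 (0.86 ± 0.20), Ldha (0.76 ± 0.19), Tpi1 (0.75 ± 0.20), Aldoa (0.44 ± 0.13) and Pfkm (0.41 ± 0.12) also rose. Ldhb fell back to 240 and 209 TPM, against 909 and 1009 TPM on day 1 (-2.06 ± 0.36, adjusted p = 9.7e-04). Ndrg1 stood at 9.69 and 13.3 TPM, against 70.1 and 72.7 TPM (-2.59 ± 0.28), and Egln3 at 6.53 and 8.12 TPM, against 30.4 and 23.7 TPM (-1.84 ± 0.20). Slc2a1 was the other member that fell (-0.71 ± 0.18). Ankrd37 and Ero1l had values near 0 (-0.06 ± 0.43 and 0.03 ± 0.28), so the rise was not shared by the hypoxia members as a group. Bnip3 stood at 33.5 and 83.0 TPM, against 20.2 and 27.2 TPM, which was not called (1.44 ± 0.59, adjusted p = 0.11). Without PNT day 1 replicate 1 or PNT day 2 replicate 2, 9 members were called, and 8 without PNT day 1 replicate 2. The calls of Ldha, Tpi1, Aldoa and Pfkm were lost in each of these, that of Slc2a1 without any 1 library and that of Pfkfb3 without PNT day 1 replicate 2. The comparisons along the time course share libraries with their neighbours, so that a low day 1 value enters both a fall and the rise after it.

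On day 3, compared with day 2, 4 members were called higher and 7 lower, against 6.13% and 6.10% of all genes. Eno2 stood out, at 37.4 and 31.2 TPM on day 3, against 2.30 and 4.22 TPM on day 2 (3.47 ± 0.41, adjusted p = 1.1e-04). Even so it held only 2.07% to 2.51% of the TPM of Eno1 and Eno2 together, and 1.03% to 1.26% with Eno1b and Eno3 included. Eno3, the muscle enolase and no member, lay above it, at 84.7 and 76.3 TPM on day 3, against 16.2 and 24.7 TPM on day 2. Eno1b, listed at 1403 and 1454 TPM on day 3, is nearly identical to Eno1 in sequence, so that the levels of both are uncertain. Pdk3 stood at 106 and 126 TPM, against 57.02 and 67.6 TPM (0.75 ± 0.17, adjusted p = 0.010), the highest Pdk3 values of this time course. Hk1 (0.78 ± 0.22) and Egln3 (0.77 ± 0.22) also rose. Aldoc stood at 39.9 and 45.8 TPM, against 97.1 and 85.0 TPM (-1.12 ± 0.24), and Hk2 at 35.8 and 34.2 TPM, against 70.1 and 62.5 TPM (-1.04 ± 0.15). The other falls were those of Slc2a1, Pkm, Pgam1, Gapdh and Eno1, from -0.67 to -0.41. Without PNT day 2 replicate 1, 5 members were called, and 6 without PNT day 3 replicate 1 or 2. Eno2, Hk2, Pkm and Pgam1 were called without any 1 library, whereas Egln3, Eno1, Hk1, Pdk3, Slc2a1, Gapdh and Aldoc each lost the call without at least 2 of the 4.

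**Figure D3:**
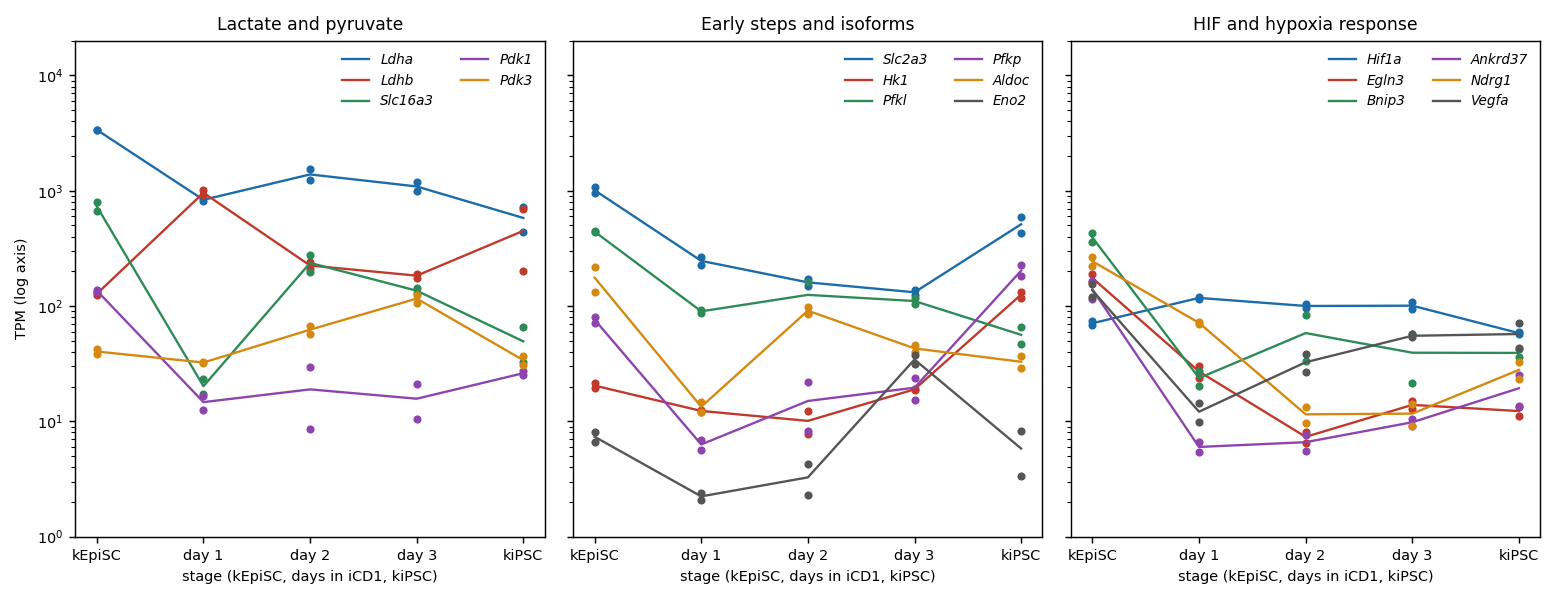
TPM (log axis) of 17 members along the transition: kEpiSCs, PNT days 1, 2 and 3 and kiPSCs; points are the 2 libraries of each stage and lines join their means. Slc16a3 drops to 17.3 and 23.1 TPM on day 1 and returns to 199 and 274 TPM on day 2, Ldhb peaks on day 1, and Eno2 and Pdk3 peak on day 3.

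The kiPSCs, set against PNT day 3, had 11 of 35 members called higher and 12 lower, with a median of -0.07. These counts are not far from the 29.3% and 28.6% of all genes, so what follows describes single members. At some steps the isoforms moved in opposite directions, while at others, such as hexokinase and enolase, both moved the same way. Pfkp stood at 180 and 225 TPM in kiPSCs, against 15.2 and 23.9 TPM on day 3 (3.47 ± 0.37, adjusted p = 8.6e-07), while Pfkl stood at 46.8 and 65.6 TPM, against 104 and 117 TPM (-0.82 ± 0.27, adjusted p = 0.017). Hk1 stood at 118 and 133 TPM, against 19.1 and 18.8 TPM (2.75 ± 0.21), and Hk2 at 154 and 126 TPM, against 35.8 and 34.2 TPM (2.07 ± 0.15). Slc2a3 stood at 592 and 432 TPM, against 138 and 125 TPM (2.04 ± 0.20), whereas Slc2a1 stood at 136 and 128 TPM, against 225 and 305 TPM (-0.88 ± 0.18). For each of these 6 genes both kiPSC libraries lay on the same side of both day 3 libraries. Eno2 (-2.69 ± 0.38), P4ha2 (-2.10 ± 0.25), Pdk3 (-1.67 ± 0.18), Slc16a3 (-1.47 ± 0.35) and Pfkfb3 (-1.14 ± 0.20) were among those that fell. Ndrg1 (1.26 ± 0.29), Ankrd37 (1.11 ± 0.39), Ero1l (1.03 ± 0.28), Aldoa (0.60 ± 0.13), Pgam1 (0.52 ± 0.09) and Gpi1 (0.40 ± 0.14) rose. Ldhb was split between the libraries, at 698 and 200 TPM in kiPSCs against 190 and 176 TPM on day 3 (1.43 ± 0.36, adjusted p = 0.0033). Without kiPSC replicate 1 its difference was 0.22 (adjusted p = 0.36). Without that library the calls of Ankrd37, Gpi1, Ndrg1 and Pfkl were lost too. The call of Ankrd37 and Gpi1 was also lost without either day 3 library, that of Ero1l without PNT day 3 replicate 1, and those of Pfkl and Pgk1 without replicate 2. Of the 18 citrate cycle genes, 12 were called higher and 1 lower in kiPSCs.

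Over the whole course, kiPSCs had 3 members called higher and 30 lower than kEpiSCs, against 28.2% and 29.2% of all genes, with a median of -1.87. The exceptions were Hk1 (2.47 ± 0.20), Ldhb (1.72 ± 0.36) and Pfkp (1.16 ± 0.32). Slc16a3 stood at 32.4 and 66.2 TPM in kiPSCs, against 670 and 793 TPM in kEpiSCs (-4.11 ± 0.37), and Egln3 at 11.2 and 13.3 TPM, against 160 and 190 TPM (-3.96 ± 0.20). Ldha stood at 440 and 721 TPM, against 3357 and 3391 TPM (-2.66 ± 0.20). Eno2 and Pdk3 were not called. Against the embryo-derived ESCs, no member was called in kiPSCs by edgeR, DESeq2 or limma, 1 had an unadjusted p under 0.05, and 0.0934% and 0.0503% of all genes were called higher and lower. The spread in that fit is wide, and the median of -0.49 includes the high ESC replicate 3. Pfkp made up 65.2% and 66.9% of phosphofructokinase TPM in kiPSCs, inside the range of 59.7% to 70.7% in ESCs.

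Isoform shares put these steps side by side within each library, free of differences in scaling between libraries. Pfkp held 4.37% and 5.41% of phosphofructokinase on PNT day 1, 6.16% and 9.46% on day 2 and 9.34% and 12.6% on day 3, against 11.9% and 12.6% in the starting kEpiSCs. The share found in ESCs and kiPSCs was thus not reached by day 3. In the JunKO and WT lines, the Pfkp share after 3 days was 31.9% and 32.9% in JunKO with JNKi, 18.0% and 22.4% in JunKO in iCD1, 20.9% and 24.4% in WT with JNKi, and 9.33% and 20.3% in WT in iCD1. The last overlapped the PNT day 3 libraries, and the others lay above them. The 4 primed libraries of these lines had 3.01% to 6.50%. Hk2 held 64.5% and 65.3% of the hexokinase pair on PNT day 3, against 89.6% and 90.7% in kEpiSCs and 48.8% and 56.5% in kiPSCs. Pdk3 held 85.7% and 91.1% of its pair on day 3, against 22.5% and 23.2% in kEpiSCs. Egln3 held 64.4% and 74.4% of the Egln1 and Egln3 pair on day 1, but 28.4% and 33.8% on day 2.

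**Figure D4:**
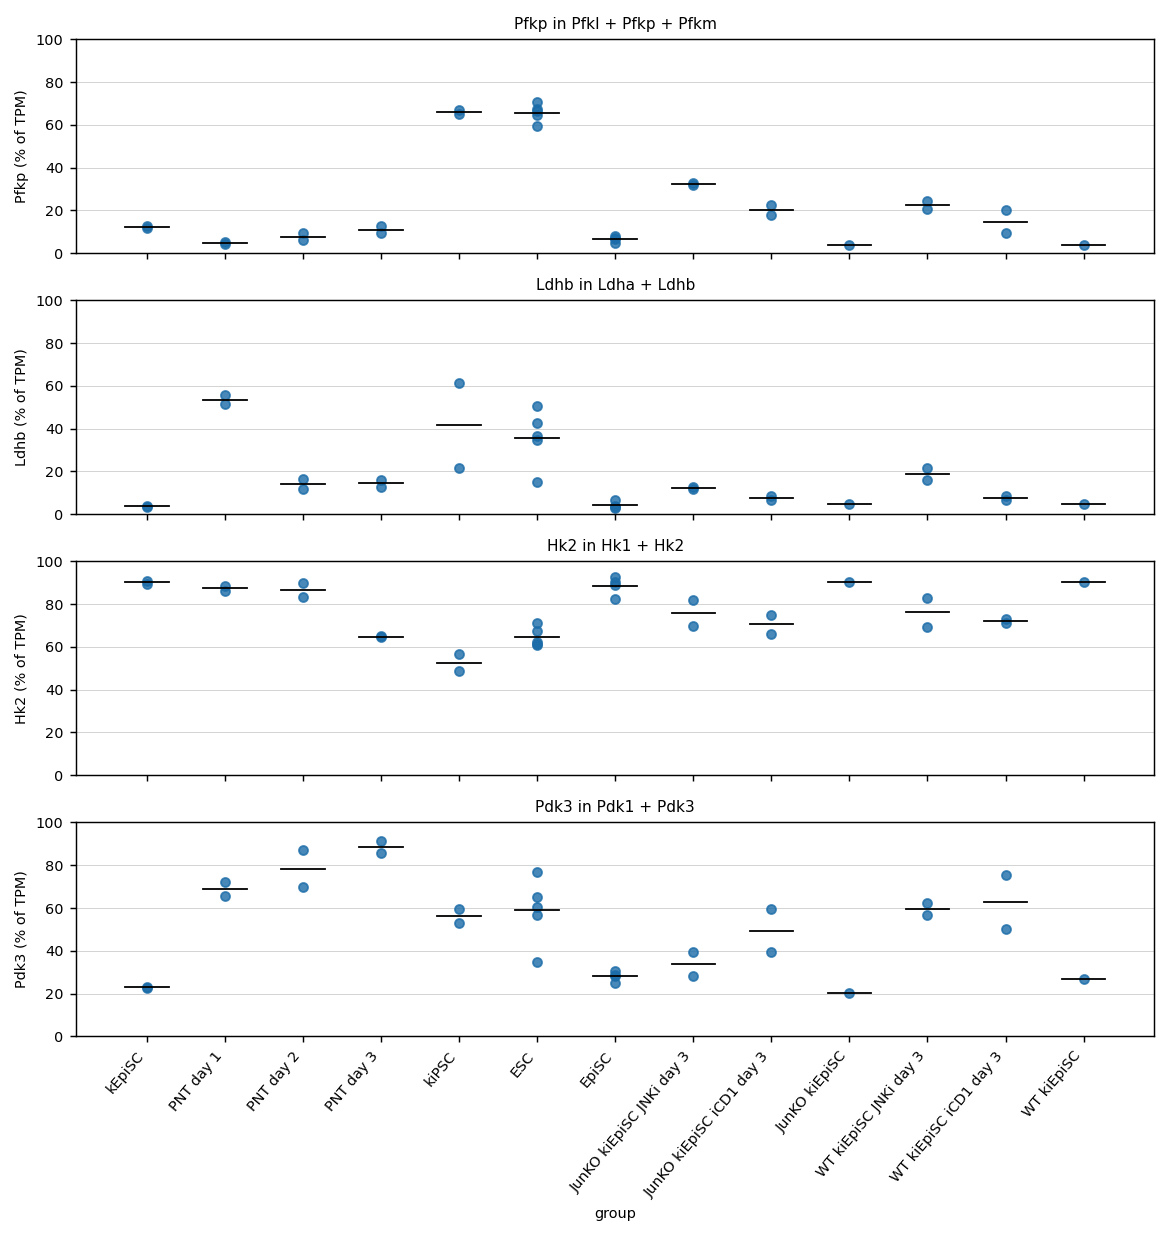
Share of TPM (percent) held by Pfkp, Ldhb, Hk2 and Pdk3 within their isoform sets, by group; points are libraries and black lines group means. Pfkp separates ESCs and kiPSCs (59.7% to 70.7%) from the other groups plotted (up to 32.9%), Ldhb goes up to 51.4% and 55.6% on PNT day 1, and Pdk3 is highest on PNT day 3.

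The JNK inhibitor was compared with iCD1 alone on each day to ask whether it changes the course of the transition. No member was called on day 1, 2 or 3 by edgeR, DESeq2 or limma. The number with an unadjusted p under 0.05 was 1, 1 and 7 on the 3 days, and in the whole table only 1 gene (0.00672%) was called higher on day 2 and 0% on the other days and in the other direction. On day 3, Ldha stood at 1338 and 1307 TPM with JNKi and 994 and 1184 TPM without. The largest difference on day 3 was that of Pdk1, at 37.3 and 22.6 TPM with JNKi and 10.4 and 21.0 TPM without (0.96 ± 0.45). Hk2 stood at 44.1 and 66.7 TPM with JNKi and at 35.8 and 34.2 TPM without (0.54 ± 0.16), and Slc2a3 at 241 and 152 TPM and 138 and 125 TPM (0.62 ± 0.20); all had an adjusted p of 1.00. The members' median on day 3 was 0.28. The change in the JNKi effect between day 1 and day 3 was called for no member in any of the 3 tools, with 5 at an unadjusted p under 0.05 and 0% of all genes called in either direction. PNT JNKi day 2 replicate 1 was low for several hypoxia members, with Bnip3 at 13.7 TPM against 84.5 and 87.0 TPM in replicates 2 and 3. The day 1 exchange of Ldha for Ldhb was present with the inhibitor too, with Ldhb at 48.1% and 52.7% of the pair.

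In primed cells, JunKO was compared with WT before the transition. In this and every later comparison of the genotypes, the loss of c-Jun cannot be told apart from other differences between the lines, such as that in Eif2s3y. Each genotype had 1 iEpiSC and 1 kiEpiSC library, fitted with a term for the line. Slc2a3 and Egln3 were called lower in JunKO and no member higher, against 0.135% of all 12613 genes lower and 0.222% higher. Slc2a3, the high-affinity glucose transporter, stood at 287 and 213 TPM in the JunKO iEpiSC and kiEpiSC libraries, against 728 and 404 TPM in WT (-1.15 ± 0.15, adjusted p = 0.013). Egln3 stood at 18.7 and 19.7 TPM, against 96.7 and 56.7 TPM (-1.98 ± 0.33, adjusted p = 0.036). For both genes the genotypes did not overlap. Of 35 members, 32 had a value below 0, with a median of -0.55, against -0.015 over all genes. Ndrg1 stood at 17.4 and 55.4 TPM in JunKO, against 94.5 and 123 TPM in WT (-1.86 ± 0.43, adjusted p = 0.11). The glycolytic enzymes summed to 21960 to 22107 TPM in JunKO, against 27879 to 29681 TPM in WT, and the 11 hypoxia genes to 536 to 537 TPM in JunKO, against 871 to 1236 TPM in WT. Of 23 further hypoxia genes, none was called in either direction, with a median of -0.50. The WT iEpiSC library was the higher of the WT pair for 27 of 35 members, against 59.3% of all genes. Leaving out any of the 4 libraries, or both iEpiSC libraries, left no member called. The mesenchymal markers moved in the same direction, with a sum of 283.7 and 310.1 TPM in JunKO, against 563.1 and 577.8 TPM in WT, 2 of 10 called lower, none higher and none at 0, and their part in the values of the members was not tested.

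After 3 days in iCD1 the sign of Slc2a3 was the opposite. It stood at 355 and 294 TPM in JunKO, against 186 and 160 TPM in WT (0.90 ± 0.15, adjusted p = 0.021), again without overlap, and was the only member called; 1.47% of all genes were called higher and 0.230% lower. Leaving out JunKO iCD1 replicate 1 or either WT library removed the call. The naive markers differed too, with sums of 657.0 and 1197 TPM in JunKO in iCD1, against 171.0 and 292.4 TPM in WT in iCD1. Klf4, the transgene named by the prefix of these lines, is among them. It stood at 54.3 and 69.4 TPM in JunKO in iCD1 and 89.4 and 45.45 TPM in WT in iCD1. The part of the naive markers in the values of the members was not tested. Eno2 stood at 10.5 and 5.96 TPM in JunKO, against 26.4 and 11.8 TPM in WT (-1.81 ± 0.41, adjusted p = 0.061). With JNKi in both genotypes, no member was called by edgeR or limma and 1 by DESeq2, with 7 at an unadjusted p under 0.05, against 0.626% of all genes higher and 0.293% lower. Without JunKO JNKi replicate 1, 5 were called. Ankrd37 stood at 25.5 and 27.0 TPM in JunKO with JNKi, against 8.84 and 2.09 TPM in WT with JNKi (1.72 ± 0.58, adjusted p = 0.18), and Ddit4 at 151 and 326 TPM, against 96.1 and 110 TPM (1.14 ± 0.27, adjusted p = 0.074).

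Within WT, 3 days in iCD1 were compared with the primed cells, whose libraries are shared with the comparison of genotypes above. The day 3 libraries are kiEpiSC, so the primed level is that of kiEpiSC in the fit, to which the iEpiSC libraries contribute through the term for the line; primed values are given in the order iEpiSC, kiEpiSC. Of 35 members, 2 were called higher and 10 lower, against 14.5% and 14.3% of all genes. Slc2a3 stood at 186 and 160 TPM on day 3, against 728 and 404 TPM (-1.44 ± 0.17, adjusted p = 1.9e-04). Egln3 stood at 8.01 and 12.8 TPM, against 96.7 and 56.7 TPM (-2.75 ± 0.39, adjusted p = 6.0e-04). Ndrg1 stood at 32.3 and 24.8 TPM, against 94.5 and 123 TPM (-2.59 ± 0.48, adjusted p = 0.0029). In none of these 3 did the groups overlap. Ankrd37 stood at 5.33 and 12.2 TPM, against 37.2 and 23.9 TPM (-2.12 ± 0.60, adjusted p = 0.024), and Hk2 at 58.3 and 52.5 TPM, against 163 and 163 TPM (-1.68 ± 0.32). The day 3 levels of Ankrd37 rest on 6 and 11 counts. Pdk3 rose to 100 and 106 TPM, against 37.0 and 33.5 TPM (1.51 ± 0.15, adjusted p = 8.7e-05), as it did between days 1 and 3 of the PNT. Eno2 stood at 26.4 and 11.8 TPM, against 13.8 and 6.37 TPM (2.30 ± 0.49), with overlap between the groups. Pfkm (-0.84 ± 0.17), Pkm (-0.71 ± 0.17), Pgam1 (-0.70 ± 0.17), Ldha (-0.70 ± 0.24) and Eno1 (-0.61 ± 0.12) fell as well. Without WT kiEpiSC 3 members were called, Slc2a3, Egln3 and Pdk3, and without any 1 of the other 3 libraries the count was 10. Against the iEpiSC level, Slc2a3 differed by -2.01 ± 0.16, and the calls of Eno2 and Ldha were lost.

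Within JunKO, 5 of 35 members were called higher on day 3, near the 13.5% of all genes, and 2 lower, against 11.3%. Pfkp stood at 99.7 and 44.1 TPM, against 10.2 and 11.7 TPM in primed JunKO (2.80 ± 0.61, adjusted p = 0.0083), Pdk3 at 77.0 and 72.9 TPM, against 39.8 and 33.2 TPM (1.09 ± 0.15), and Hk1 at 24.9 and 20.9 TPM, against 13.7 and 14.8 TPM (0.97 ± 0.24). P4ha2 stood at 26.3 and 18.2 TPM, against 9.17 and 13.3 TPM (1.18 ± 0.38). Each of these lay higher in both day 3 libraries than in both primed ones. Slc2a3 stood at 355 and 294 TPM, against 287 and 213 TPM (0.61 ± 0.16, adjusted p = 0.022), with the lower day 3 library only just above the higher primed one. Against the iEpiSC level in place of kiEpiSC its difference was 0.04 ± 0.17 (adjusted p = 0.89), and with the kiEpiSC libraries alone it was 0.51 ± 0.18 (adjusted p = 0.086). Hk2 (-1.30 ± 0.32) and Pfkm (-1.10 ± 0.17) fell. Without JunKO kiEpiSC no member was called, without JunKO iEpiSC or JunKO iCD1 replicate 1 the count was 4 and without JunKO iCD1 replicate 2 it was 10. The day 3 effect itself was then compared between genotypes, a test added after these values were seen. Slc2a3 was the only member called (2.05 ± 0.21, adjusted p = 0.014), with 0.0159% of all genes called higher and 0% lower. That call was lost when any of the primed libraries or either WT iCD1 library was left out, and with the kiEpiSC libraries alone the difference was 1.84 ± 0.25 (adjusted p = 0.43). Egln3 had the largest difference (2.44 ± 0.50) but was not called (adjusted p = 0.29).

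The inhibitor was also tested within each genotype on day 3. In WT, 1 member was called higher and 2 lower, against 0.333% and 0.151% of all genes. Ldhb stood at 218 and 216 TPM in WT with JNKi, against 111 and 129 TPM in WT in iCD1 (0.82 ± 0.14, adjusted p = 0.038). Pdk3 stood at 59.9 and 59.4 TPM, against 100 and 106 TPM (-0.80 ± 0.13, adjusted p = 0.036), and Pfkm at 27.2 and 30.0 TPM, against 56.1 and 49.8 TPM (-0.90 ± 0.16, adjusted p = 0.040). All 3 had groups apart, yet leaving out any of the 4 libraries removed every call. In JunKO, Pdk3 was the only member called, at 39.5 and 42.5 TPM with JNKi, against 77.0 and 72.9 TPM in iCD1 (-0.94 ± 0.13, adjusted p = 0.043), with 0.0317% of all genes called higher and 0.0159% lower. This call too was lost without JunKO JNKi replicate 2 or either iCD1 library, while 3 members were called without JunKO JNKi replicate 1. Ldhb stood at 186 and 229 TPM, against 161 and 151 TPM (0.33 ± 0.14, adjusted p = 0.35). The difference in the JNKi effect between genotypes was called for no member by any tool, with 4 at an unadjusted p under 0.05 and 0% of all genes called. In PNT cells on day 3, Pdk3 had 109 and 76.4 TPM with JNKi and 106 and 126 TPM without (-0.29 ± 0.17), which was not called. Within the day 3 pairs 1 library was mostly the higher: JunKO iCD1 replicate 1 for 29 of 34 members, WT iCD1 replicate 1 for 29 of 34, JunKO JNKi replicate 2 for 31 of 33 and WT JNKi replicate 1 for 27 of 33, against 50.4%, 49.1%, 56.6% and 40.7% of all genes.

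**Figure D5:**
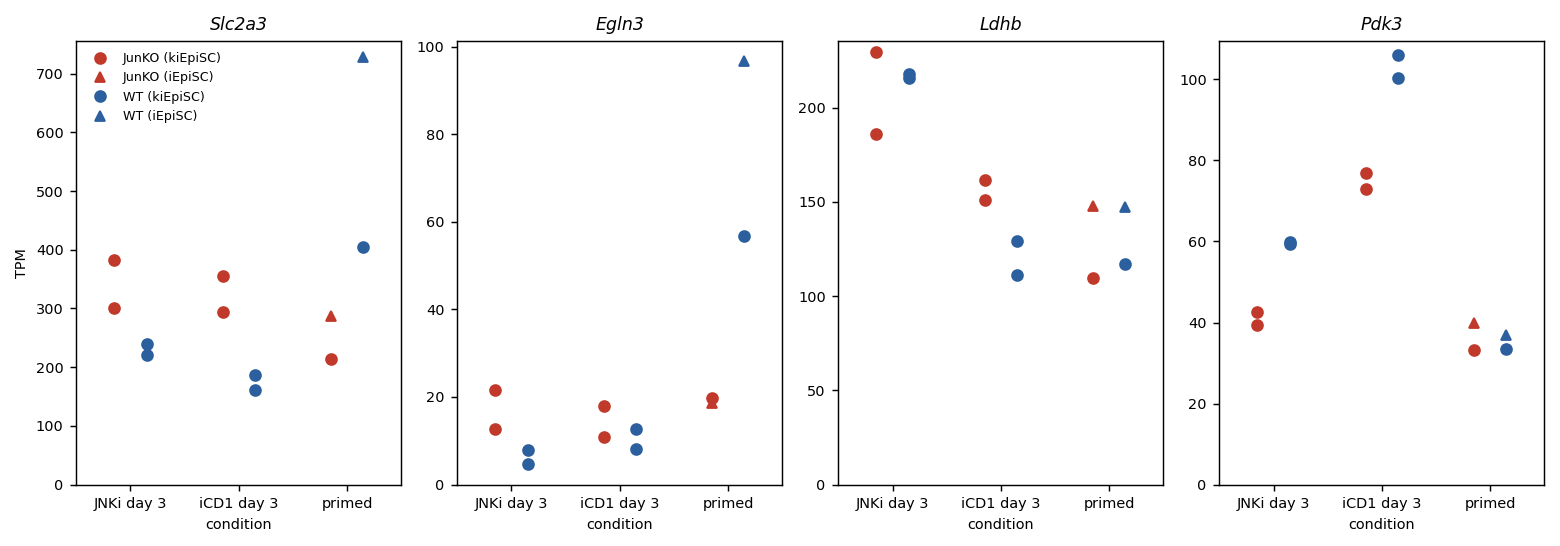
TPM of Slc2a3, Egln3, Ldhb and Pdk3 in JunKO (red, left) and WT (blue, right) libraries with JNKi on day 3, in iCD1 on day 3 and while primed; triangles are iEpiSC and circles kiEpiSC libraries. Slc2a3 lies below WT in primed JunKO (287 and 213 against 728 and 404 TPM) and above WT in iCD1, and Pdk3 is highest in iCD1 in both genotypes.

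Regulators and neighbouring pathways were measured in the same libraries. Epas1 stood at a mean of 15.4 TPM in ESCs and 0.62 TPM in EpiSCs (4.54 ± 0.49, adjusted p = 9.1e-06), whereas Hif1a was lower in ESCs, a call that was lost with ESC replicate 5 alone. Myc averaged 3.37 TPM in ESCs and 78.4 TPM in EpiSCs (-4.54 ± 0.40, adjusted p = 1.6e-06). Of 27 further hypoxia genes, 7 were called higher and 7 lower in ESCs, which is near the 27.1% and 23.8% of all genes. Among those higher were Ak4, a mitochondrial adenylate kinase, at 303.7 TPM against 49.3 TPM (2.71 ± 0.32), and Kdm3a, a histone demethylase, at 116.0 TPM against 35.5 TPM (1.66 ± 0.15), while Gbe1, the glycogen branching enzyme, was lower (-2.50 ± 0.23). Pdk4, the kinase isoform linked to fasting, averaged 6.07 TPM in ESCs and 0.058 TPM in EpiSCs. Ak4, Kdm3a and Epas1 were also higher in kiPSCs than on PNT day 3 (3.67 ± 0.21, 2.48 ± 0.15 and 2.89 ± 0.32). Fibroblast markers summed to 8.38 to 546.6 TPM in ESCs and 19.2 to 171.5 TPM in EpiSCs, with 0 of 12 called higher and 1 lower and none at 0 in either group; their part in the differences of the members was not tested.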

How the data were processed

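RNA of 38 libraries was sequenced. Per the labels and the study's methods, the authors made reads with bcl2fastq and quantified them against mm10 with RSEM and Bowtie2 (versions not given in the sources used here). For each gene the authors deposited an expected count, a TPM and an FPKM value; the labels and the methods name different library kits. Totals ran from 2164711 to 15944950 counts. Here expected counts were rounded and tested with edgeR 4.0.16 (R 4.3.3; TMM scaling, quasi-likelihood test, filterByExpr with a minimum count of 10, Benjamini-Hochberg adjustment over all genes, threshold 0.05). The SE of a log2 fold change was its size divided by the square root of F. TPM served for levels and isoform shares, and FPKM only as an alternative.

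Groups came from the labels. ESC, EpiSC, kEpiSC and kiPSC libraries entered 1 fit (13 libraries, 13923 genes), kEpiSC, PNT (with and without JNKi) and kiPSC libraries another (17 libraries, 14892 genes) and JunKO and WT libraries the last (12 libraries, 12613 genes, with the line as a term and kiEpiSC, the line of the day 3 cells, as the primed level). The same kEpiSC and kiPSC libraries serve in several comparisons. No libraries of the same group were duplicates (lowest chi-square per degree of freedom 3.92), and libraries of different groups were not compared for this. The edgeR fits were first run on simulated counts with known changes, for 1 comparison per fit. These counts held no line effect and no library that stood apart, so the run does not speak to such features of the data.

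Alternatives were DESeq2 1.42.0, limma 3.58.1 on log2(TPM + 1), other filters, fits of all or only the compared libraries, a replicate block and leaving out each library. The test of the day 3 effect between genotypes, other primed baselines, kiEpiSC libraries only and EpiSC replicate 1 only were added after the values were seen. Members and lists were chosen with earlier results of these data known. All members are accounted for; library values are given for up to 5 called members per direction with the largest change at 10 TPM or more, for isoform pairs and for members called against the majority, with up to 4 called genes per further list and others where a result turns on them. Tables and figures used python 3.11.15, numpy 2.4.6, pandas 2.3.3 and matplotlib 3.10.9.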

Additional observations from a re-analysis of the deposited data

Results flagged for a closer look

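Each of the 36 members was examined within the ESC and within the EpiSC libraries, which gave 72 sets of 4 or 5 values. Car9, which failed the count filter, was included. Chance marks about 1 in 20 of independent sets, but these share the same libraries, so their number cannot be set against that rate. A library far from the others was found in 25 sets. ESC replicate 3 was that library in 21. Its TPM lay above the range of the other 4 ESC libraries, given in brackets. For the transport and upper glycolytic genes it was 484.9 for Slc2a1 (129.1 to 193.4), 1298 for Gpi1 (593.3 to 740.2), 252.1 for Pfkl (40.84 to 72.05), 3949 for Aldoa (1331 to 1678), 147.6 for Aldoc (20.62 to 36.67) and 1029 for Tpi1 (294.2 to 443.1). For the lower steps it was 1515 for Pgk1 (447.6 to 736.7), 1556 for Pgam1 (698.9 to 852.6), 2258 for Eno1 (676.7 to 1073), 3980 for Pkm (1418 to 1753), 2831 for Ldha (659.8 to 925.9), 264.2 for Slc16a3 (23.56 to 46.19) and 88.07 for Pdk1 (16.61 to 26.26). For the hypoxia genes it was 308.9 for Bnip3 (29.97 to 64.55), 60.02 for Egln1 (13.49 to 24.59), 56.81 for Egln3 (7.69 to 21.38), 4.43 for Car9 (0.55 to 1.06), 96.58 for Ndrg1 (23.01 to 31.31), 36.47 for Ankrd37 (6.93 to 13.38), 69.33 for P4ha1 (24.45 to 37.42) and 36.96 for P4ha2 (2.34 to 9.95).

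EpiSC replicate 3 stood above the other EpiSC libraries for Pfkm, at 135.7 TPM (82.62 to 84.0), and Egln3, at 64.47 TPM (21.62 to 28.86). EpiSC replicate 1 stood above them for Ldhb, at 286.2 TPM (117.2 to 132.2), and below them for Car9, listed at 0.0 TPM (3.07 to 3.32).

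The day 3 effect on Slc2a3 differed between the genotypes by 2.05 (log2, JunKO minus WT, edgeR adjusted p = 0.014), being 0.61 in JunKO and -1.44 in WT, each against the primed kiEpiSC level. That test was added after these values were seen, so its p-value is no independent evidence. The call was lost when any primed library or either WT iCD1 library was left out, and with the kiEpiSC libraries alone. The JunKO value also depended on the primed level used.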

How the results depend on the processing

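Of 2115 values of called members under the alternatives, 1862 stayed called in the same direction, 252 lost the call and 1 reversed: Slc2a1 between ESC and EpiSC, at 0.063 against EpiSC replicate 1 only. Isoform shares from FPKM equal those from TPM apart from rounding, as both units differ only by a constant factor within a library. That none of these 176 values moved is therefore no check. From expected counts, which are not corrected for length, shares moved by more than the spread between replicates in 78 of 176 values. The causes of the shifts that follow were not tested.

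Members called without 1 library ranged from 14 to 31 for ESC against EpiSC, 0 to 2 for kEpiSC against EpiSC, 8 to 14 for day 2, 5 to 9 for day 3 and 18 to 25 for kiPSC against day 3. The range was 33 to 33 for day 1 and 33 to 35 for kiPSC against kEpiSC. It was 0 to 0 for kiPSC against ESC, for JNKi on days 1 and 2 and its change over days, for primed JunKO against WT and for WT JNKi against WT iCD1. It was 0 to 1 for JNKi on day 3, for JunKO against WT in iCD1, for the JNKi effect between genotypes and for the day 3 effect between genotypes. It was 0 to 5 for JunKO against WT with JNKi, 0 to 3 for JunKO JNKi against JunKO iCD1, 3 to 10 for WT and 0 to 10 for JunKO on day 3 against primed.

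With a filter of only 1 count, the number called was 2 for kEpiSC against EpiSC, 20 for day 3 against day 2, 1, 2 and 6 for JNKi on days 1, 2 and 3, 1 for its change over days, 18 for primed JunKO against WT, 7 in iCD1, 11 with JNKi, 19 for JNKi in WT, 15 for JNKi in JunKO, 23 for WT and 12 for JunKO on day 3 against primed, 2 for the JNKi effect and 9 for the day 3 effect between genotypes. DESeq2 called 5 members for kEpiSC against EpiSC, 4 for primed JunKO against WT, 1 with JNKi, 5 for JNKi in WT, 2 for JNKi in JunKO and 2 for the day 3 effect between genotypes. limma called 1 for primed JunKO against WT and 0 for JNKi in JunKO. A fit of the compared groups alone called 4 for kEpiSC against EpiSC, 21 for primed JunKO against WT, 7 for JNKi in WT and 0 in JunKO. All 38 libraries in 1 fit called 9 for kEpiSC against EpiSC, 6 for day 2, 2 for day 3, 11 for kiPSC against day 3, 7 for WT and 4 for JunKO day 3 against primed, and 0 for primed JunKO against WT, JunKO against WT in iCD1, JNKi in WT, JNKi in JunKO and the day 3 effect between genotypes. ESC libraries without a strain label gave 10 called against EpiSC. Added after the data were seen, EpiSC replicate 1 only gave 4 called for ESC and 2 for kEpiSC, and the kiEpiSC libraries only gave 0 for primed JunKO against WT, 4 for JunKO day 3 against primed and 0 for the day 3 effect between genotypes.

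Replicate numbers were not taken to pair the libraries, as no label says that they do. The correlations of same-numbered libraries were -0.055 to 0.055 for ESC and EpiSC. With only 1 or 2 shared numbers they were 0.152 to 0.283 for JNKi against iCD1 on the PNT days, 0.242 for JunKO against WT in iCD1, 0.147 for JNKi in WT, 0.143 for day 3 against day 2 and -0.016 to 0.101 elsewhere. A replicate block gave 23 called for ESC against EpiSC, 10 for kEpiSC against EpiSC, 35 for day 1, 14 for day 2, 14 for day 3, 26 for kiPSC against day 3, 33 for kiPSC against kEpiSC, 0 for JNKi on each PNT day, 5 for primed JunKO against WT, 2 in iCD1, 2 with JNKi and 7 for JNKi in WT.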
